A study of Caenorhabditis elegans with 4 samples.

Results

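The regions described here are the MIX-1 peaks on the left part of the X chromosome, the third of it nearest its left end, in wild-type Caenorhabditis elegans embryos. They were taken by position alone from the peak list deposited for the whole series: every X peak whose midpoint lay at or below position 5906000 of the WormBase WS220 build. This gave 390 of the 2705 peaks in the list, or 36.2% of the 1076 peaks on X. The series comprises 2 MIX-1 chromatin immunoprecipitation sequencing (ChIP-seq) libraries and 2 input libraries. All came from mixed-stage embryos of strain N2, genotype wild type, in a population that the labels give as both male and hermaphrodite, with no treatment or mutant. The antibody was an affinity-purified rabbit polyclonal serum raised against MIX-1, and no library lacking MIX-1 was analysed here to set its background.

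MIX-1 is a structural maintenance of chromosomes (SMC) ATPase. It serves in the mitotic and meiotic condensins of the worm and also in the condensin-like core of the dosage compensation complex. That complex loads at recruitment elements on X, spreads from them to further sites that often lie at promoters of active genes, and lowers X expression in hermaphrodites. Peaks on X can therefore hold MIX-1 of more than 1 complex, and these data do not tell the complexes apart.

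Each ChIP library also has its own peak list, called separately. The replicate 1 list put 301 of its 2310 regions on the left part of X and the replicate 2 list 109 of its 706. The labels number the replicates without saying whether they were separate cultures, so their spread may be technical. Read depth is unknown, because only peak lists were used, and the replicate lists differ in length throughout the genome. Peak scores are the authors' own, on a scale that is not stated and that differs between the series-wide and the replicate lists. They were used here to rank and describe peaks within a list. Intervals and tests on numbers of peaks treat peaks as independent counts and cover counting error only.

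The left part of X carried 66.0 MIX-1 peaks per Mb in the series-wide list (Poisson 95% interval 59.6 to 72.9), against 19.3 per Mb on chromosomes II to V (18.2 to 20.4). The ratio was 3.42 (exact 95% interval 3.05 to 3.84; exact binomial test, two-sided, adjusted p = 1.13e-78). Replicate 1 alone gave a ratio of 2.92 (2.57 to 3.32) and replicate 2 alone 3.81 (3.04 to 4.75), a mean of 3.37 ± 0.631 (SD, n = 2). Chromosome III, the autosome with the most peaks per Mb among II to V in the series-wide list, reached 26.1 per Mb. Series-wide peaks covered 2.50% of the left part of X and 0.730% of chromosomes II to V. For replicate 1 regions these percentages were 2.61% and 0.944%, and for replicate 2 regions 1.12% and 0.386%.

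The rest of X was divided into a central and a right part of the same length. The left part held more peaks than the central part and did not differ detectably from the right part. The densities were 66.0, 53.0 and 63.2 peaks per Mb in the series-wide list. The excess over the central part was 1.25-fold (1.07 to 1.45; exact binomial test, two-sided, adjusted p = 0.0159). Both replicate lists gave a ratio near this, 1.23 in replicate 1 and 1.25 in replicate 2 (1.24 ± 0.0172, SD, n = 2), but in neither shorter list did it pass the test (exact binomial adjusted p = 0.0718 and 0.304). It did not pass either once peaks up to 10 kb apart were joined, when the ratio was 1.03 (0.836 to 1.28). Against the right part the ratio was 1.05 (0.905 to 1.21; exact binomial adjusted p = 0.700), and replicate 1 gave 0.974. Against the rest of X as a whole it was 1.14 (1.00 to 1.29), with an exact binomial p of 0.0449 that did not pass after adjustment (adjusted p = 0.145). With peaks up to 1 kb apart joined, that ratio was 1.20 and passed (exact binomial adjusted p = 0.0249).

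**Figure D1:**
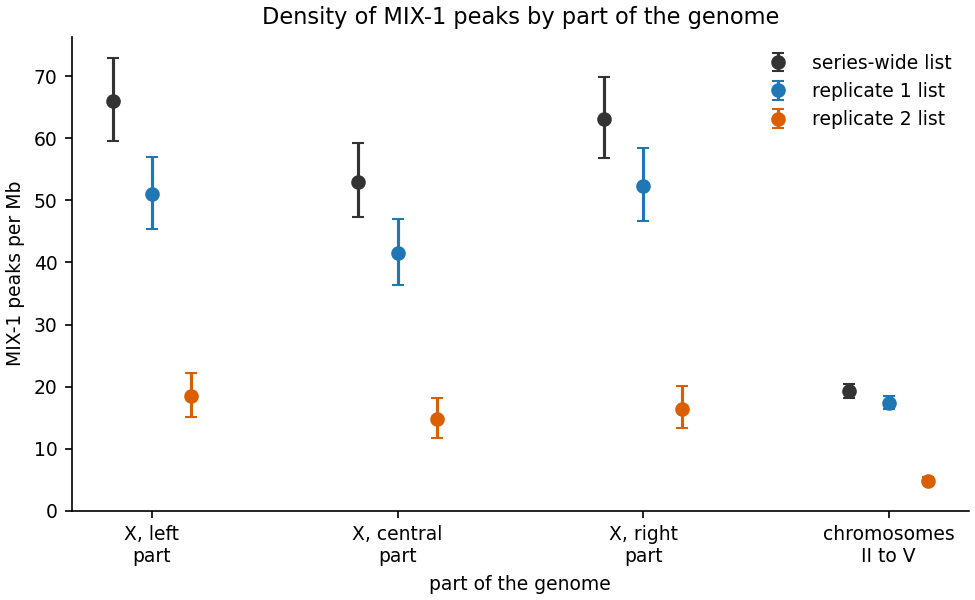
MIX-1 peaks per Mb on the left, central and right parts of X and on chromosomes II to V in the series-wide list and in each replicate list; points are densities and bars Poisson 95% intervals. In all 3 lists the left part of X stands above chromosomes II to V with no overlap of intervals, and the central part is the lowest on X, at 53.0 peaks per Mb in the series-wide list.

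Each of chromosomes II to V was likewise divided by length into 3 equal stretches. The leftmost held 28.0% of the peaks of chromosomes II to V (exact binomial 95% interval 25.6 to 30.6), against 36.2% for the left part of X (33.4 to 39.2). In replicate 1 the shares were 30.6% (28.0 to 33.4) on chromosomes II to V and 35.2% (32.0 to 38.5) on X. In replicate 2 they were 31.6% (26.6 to 36.9) and 37.2% (31.7 to 43.0). The difference itself was not tested, and the intervals overlapped in both replicate lists. Chromosome III had 44% of its replicate 2 regions in its leftmost stretch, a larger share than X.

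The peaks were spread over the whole of the left part, with the densest stretch between 1 and 2 Mb from the left end. From the left end inwards, the series-wide list held 54, 94, 67, 46 and 76 peaks in successive 1-Mb bins. The last bin, of 0.906 Mb, held 53 peaks, or 58.5 per Mb. The bin with the most peaks, from 1 to 2 Mb (Poisson 95% interval 76.0 to 115), did not overlap the bin with the fewest, from 3 to 4 Mb (33.7 to 61.4). These bins also marked the extremes in replicate 1, at 69 (53.7 to 87.3) and 35 (24.4 to 48.7) regions. In replicate 2, which had 13 to 24.3 regions per Mb, the densest bin was the last, and the intervals of all 6 bins overlapped. The extremes were picked from 6 bins and were not tested.

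The left part was also divided at its middle. The outer stretch, next to the chromosome end, held 210 series-wide peaks and the inner stretch 180. The ratio of 1.17 (0.951 to 1.43) did not pass the test (exact binomial adjusted p = 0.307). The replicates fell on either side of equality, with 165 against 136 regions in replicate 1 and 50 against 59 in replicate 2.

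**Figure D2:**
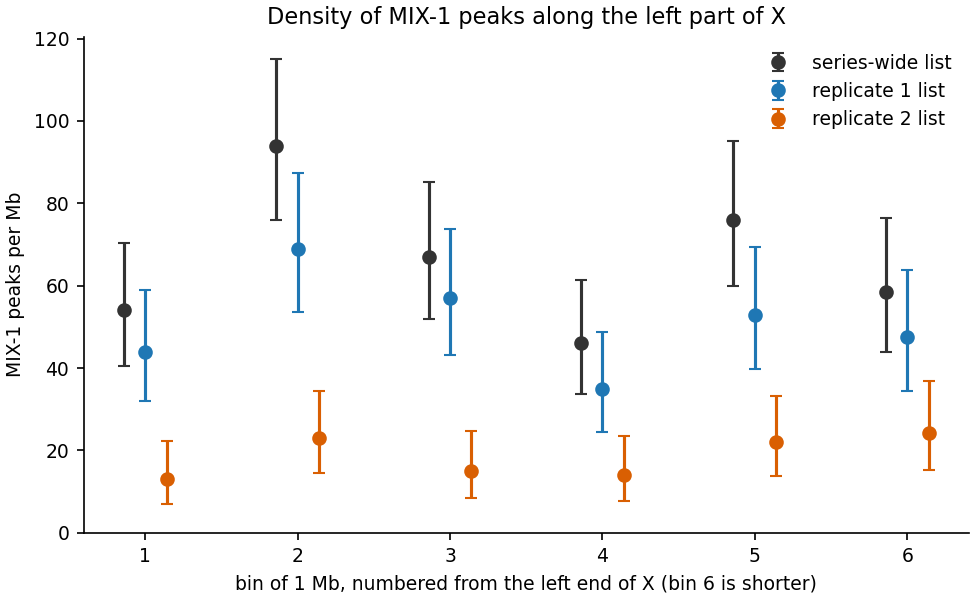
MIX-1 peaks per Mb in bins of 1 Mb numbered from the left end of X (the last bin spans 0.906 Mb), for the 3 lists, with Poisson 95% intervals as bars. Bin 2 is highest and bin 4 lowest in the series-wide list, at 94 and 46 peaks per Mb, and in replicate 1, while in replicate 2 the intervals of all bins overlap.

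The strongest MIX-1 site on the left part was X 2995863 to 2997465, a peak of 1603 bp with a series-wide score of 178.9, the 3rd highest score among the 2695 nuclear peaks. It scored 3100 in both replicates, the value at which the replicate scores pile up, and was the only region of the left part at that value in replicate 2. The second strongest, X 4208524 to 4210462, measured 1939 bp and had a series-wide score of 170.4, with 3100 in replicate 1 and 2122 in replicate 2. It was followed by X 806280 to 807350, a peak of 1071 bp that scored 153.1, with 2298 in replicate 1 and 933.9 in replicate 2. Replicate 2 placed these sites 1st, 3rd and 6th by score among its 109 regions on the left part.

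Next came X 5428916 to 5430006, a peak of 1091 bp with a series-wide score of 115.1, which scored 3100 in replicate 1 and 2223 in replicate 2. The 5th was X 1344364 to 1345355, 992 bp wide, with scores of 104.4, 2337 and 670.1 in the series-wide, replicate 1 and replicate 2 lists. X 1626605 to 1627457 was narrower, at 853 bp, and scored 101.5, 1470 and 534.6 in the same order. The last peak above 100 in the series-wide list was X 1908700 to 1909868, 1169 bp wide, with 100.5, 2432 and 612.6. All 7 peaks were thus called in both libraries, and 3 of them lay between 1.34 and 1.91 Mb.

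Below 100, the series-wide scores of the strongest sites declined more gradually, to 42.9 at the 20th. The 8th peak, X 4395254 to 4395774, had a series-wide score of 75.6, with 1008 in replicate 1 and 302.4 in replicate 2. For X 409824 to 410629 the series-wide score was 66.5, with 1573 in replicate 1 and 416.0 in replicate 2. Between 3 and 4 Mb the highest peak was X 3099747 to 3100149, only 403 bp wide, with a series-wide score of 62.6. It scored 345.95 in replicate 1 and 223.7 in replicate 2, so this bin had no peak near the level of those at 0.807, 3.00, 4.21 and 5.43 Mb. That lack depends on where the bin edge was set, because the strongest site, X 2995863 to 2997465, ended just short of it.

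For the 20 highest-scoring peaks found in both replicates, widths ran from 365 to 4137 bp with a median of 671 bp. The lowest, median and highest scores were 42.9, 62.25 and 178.9 in the series-wide list. In replicate 1 they were 345.95, 1054 and 3100, and in replicate 2 they were 140.5, 347.7 and 3100. Midpoints of neighbours in this set lay a median of 186.0 kb apart, with a range of 9.88 to 928.1 kb. The closest pair was X 1379435 to 1379799 and X 1389193 to 1389797, whose series-wide scores were 61.9 and 51.0.

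Of these 20 sites, 5 had a further, weaker peak within 1 kb. A neighbour of any score lay that close for 83 of the 390 left-part peaks (21.3%) and for 27.3% of all nuclear peaks. Weaker neighbours were thus not particular to the strongest sites. The strongest site was followed after 123 bp by a peak of 146 bp with a series-wide score of 2.74. A peak of 290 bp with a score of 7.13 ended 122 bp before the second strongest site, and one of 195 bp with a score of 4.87 ended 47 bp before the site at 5.43 Mb. The sites at 0.807 and 4.40 Mb were preceded by peaks that scored 14.5 and 14.6, at 452 and 487 bp. Each of these flanking peaks is counted separately among the 390.

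The left part of X did not differ detectably from the rest of X or from chromosomes II to V in its share of high scores. The highest-scoring 10% of the nuclear list (9.98% of its peaks) contained 39 of the 390 left-part peaks, or 10% (exact binomial 95% interval 7.21 to 13.4). The rest of X had 12.0% of its peaks in this class (9.62 to 14.6; Fisher's exact test, adjusted p = 0.530) and chromosomes II to V 8.39% (6.94 to 10.0; Fisher's exact test, adjusted p = 0.530). The median series-wide score was 7.53 on the left part, with quartiles of 4.60 and 14.5, against 7.93 on the rest of X and 6.85 on chromosomes II to V. Medians in replicate 1 were 128.0, 134.7 and 110.9, and in replicate 2 they were 108.3, 113.4 and 117.7. The 39 peaks lay in every bin, from 4 of the 46 peaks between 3 and 4 Mb to 10 of the 94 between 1 and 2 Mb. The last bin had 9 of its 53 peaks among them. Each of the 39 was found in replicate 1, and 36 were found in replicate 2. Matching counts for the other parts are not given here.

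Overlap with the replicate lists was close to that of the whole nuclear list. Of the 390 peaks, 91 (23.3%, 19.2 to 27.9) overlapped a region in both replicate lists, where the share over all nuclear peaks was 22.3%. The rest of X had 23.5% (Fisher's exact test, adjusted p = 1) and chromosomes II to V 20.6% (Fisher's exact test, adjusted p = 0.481). A further 163 left-part peaks (41.8%) overlapped replicate 1 alone, 9 (2.31%) replicate 2 alone and 127 (32.6%) neither. The median series-wide score was 21.3 for peaks in both replicates, 7.54 for those in replicate 1 alone, 11.8 for those in replicate 2 alone and 4.59 for those in neither. By bin, the share found in both ran from 19.1% between 1 and 2 Mb, the bin with the most peaks, to 32.1% in the last bin.

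**Figure D3:**
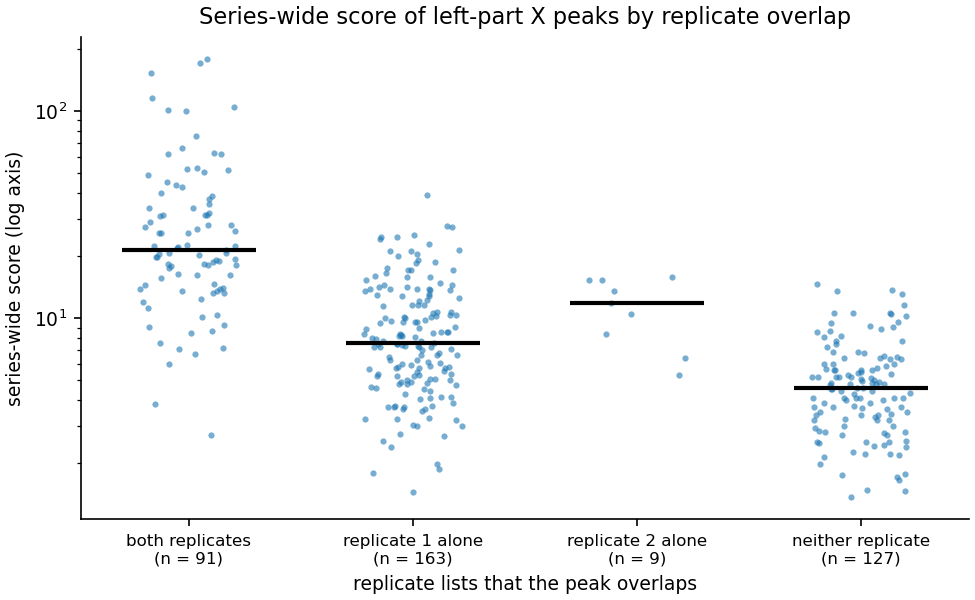
Series-wide score (log axis) of each of the 390 left-part X peaks, grouped by the replicate lists it overlaps, with the median as a black line. Peaks found in both replicates have a median of 21.3 and include every score above 39.5, and those found in neither have a median of 4.59 and a highest score of 14.5.

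Overlap with the replicate lists rose with the series-wide score. The series holds no further ChIP libraries, so the series-wide list is not independent of the replicate lists. A wider peak also meets the 1-bp overlap rule more easily. The shares below therefore describe the lists and are not separate support for the peaks. The 390 peaks were ranked by series-wide score and divided into 4 classes of 97 or 98. Of the highest class, 95.9% met a replicate 1 region and 71.4% a replicate 2 region. In the second class these shares were 75.5% and 22.4%, in the third 54.6% and 6.19%, and in the lowest 34.0% and 2.06%. Median width fell in the same order, at 411.5, 291, 232 and 205 bp. Across the 91 peaks found in both lists, the replicate scores had a Spearman rho of 0.562 and a Pearson r of 0.695. These are descriptions across sites, which share their libraries, and in a few cases neighbouring peaks share 1 replicate region.

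Among peaks found in neither replicate, the highest series-wide scores were modest. The first of them, X 2688613 to 2688843, reached 14.5. Both X 351510 to 351687 and X 3040695 to 3040926 stood at 13.6. X 431615 to 431836 reached 13.1, and X 1977752 to 1977939 reached 11.5. All 5 were narrow, at 178 to 232 bp. They ranked 97th to 133rd of the 390, so in the highest of the 4 score classes only X 2688613 to 2688843 was without a region in either replicate list.

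In the other direction, nearly all replicate 2 regions of the left part were in the series-wide list. Of the 109, 106 (97.2%, 92.2 to 99.4) overlapped a series-wide peak and 98 (89.9%, 82.7 to 94.9) a replicate 1 region. For replicate 1, 253 of 301 regions (84.1%, 79.4 to 88.0) overlapped a series-wide peak and 95 (31.6%, 26.3 to 37.1) a replicate 2 region. The share of replicate 1 regions in the series-wide list was 84.3% on the rest of X (81.0 to 87.2) and 66.8% on chromosomes II to V (64.0 to 69.5). A replicate 2 region was met by 30.0% (26.2 to 34.0) and 23.5% (21.1 to 26.0) of replicate 1 regions there. Of replicate 2 regions, 98.9% and 91.7% overlapped a series-wide peak, and 89.1% and 81.6% a replicate 1 region, in the same order. The left part was thus close to the rest of X in these shares, and no difference in them was tested.

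Of the regions missing from the series-wide list, 48 were in replicate 1 and 3 in replicate 2. X 1195228 to 1195524 in replicate 1 and X 1195230 to 1195547 in replicate 2 marked the same place, with scores of 162.2 and 63.8. The nearest series-wide peak was over 26 kb away (26898 and 26875 bp), and this was the only place on the left part called in both libraries but not in the series-wide list. The other 2 replicate 2 regions, X 143072 to 143272 and X 3755925 to 3756289, scored 54.9 and 51.7, close to that list's lowest score of 50.1. In replicate 1 the highest scores without a series-wide peak were 292.6 at X 4030894 to 4032430, 249.4 at X 5232315 to 5233310 and 167.8 at X 2005473 to 2006229. X 5728807 to 5729803 had 152.85. The first of these lay 808 bp from a series-wide peak and the third 250 bp.

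Wide peaks had higher series-wide scores, and the widest of them stood higher still by replicate 1 score. Width and series-wide score had a Spearman rho of 0.584 over the 390 peaks. The 14 peaks of at least 1 kb had a median series-wide score of 29.5, against 7.53 over all 390, and 6 of them were among the 20 strongest. The widest, X 289830 to 295291, covered 5462 bp with a series-wide score of 27.0, the 39th on the left part, and it scored 3100 in replicate 1 and 819.5 in replicate 2. X 109487 to 114282 covered 4796 bp with scores of 31.4, 3100 and 1065 in the series-wide, replicate 1 and replicate 2 lists. X 4025950 to 4030086 covered 4137 bp with 45.2, 3100 and 1209, and held 3 separate regions in replicate 1 and 4 in replicate 2. Replicate 1 thus gave these 3 broad regions the same score as the strongest site, and replicate 2 placed them 7th, 5th and 4th of its regions on the left part, while by series-wide score they ranked 39th, 31st and 18th.

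Only 2 other peaks exceeded 2 kb, and they were singled out after their values were seen. X 1752206 to 1755105, 2900 bp wide, scored 3100 in replicate 1 and 61.8 in replicate 2, with 17.8 in the series-wide list. X 1636094 to 1638556, 2463 bp wide, scored 2574 in replicate 1 and 52.1 in replicate 2, with 13.75 in the series-wide list. These replicate 2 scores stood just above that list's minimum of 50.1, so the libraries placed both regions at opposite ends of their lists. With regions over 2 kb left out of every part of the genome, the density ratio to chromosomes II to V was 3.45 and that to the central part 1.25.

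**Figure D4:**
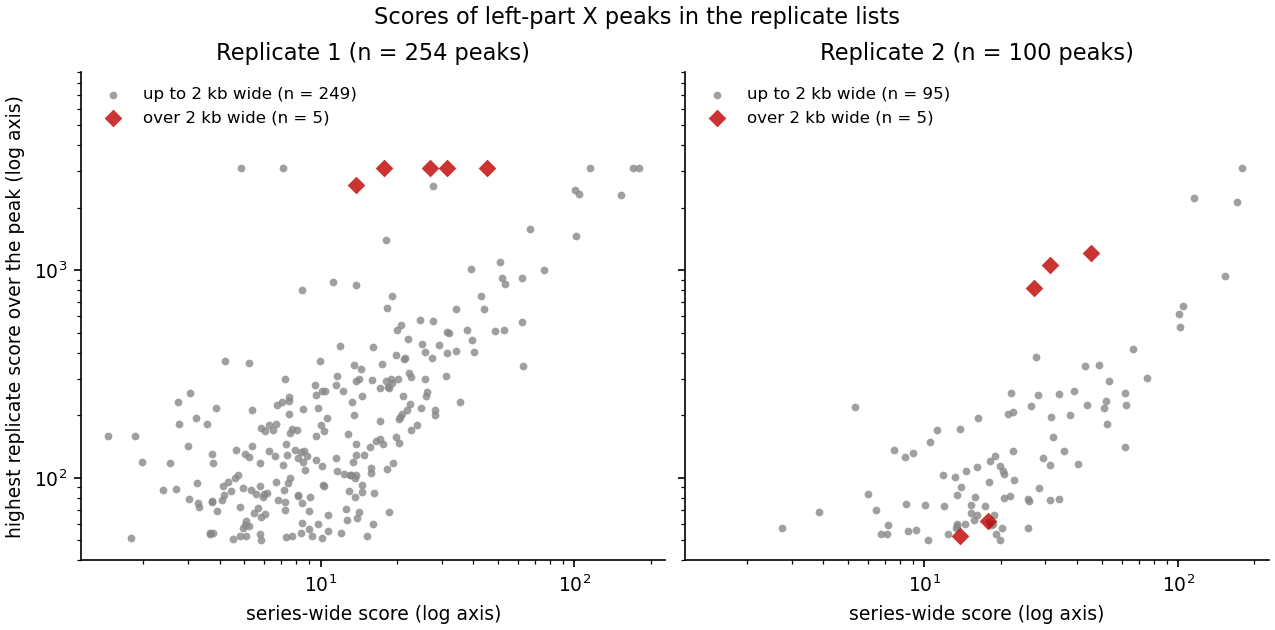
Series-wide score against the highest score of an overlapping region in replicate 1 (left, 254 peaks) and replicate 2 (right, 100 peaks) for left-part X peaks, both on log axes, with the 5 peaks over 2 kb wide as red diamonds. In replicate 1 these sit at 2574 to 3100 with series-wide scores of 13.75 to 45.2, whereas in replicate 2 they run from 52.1 to 1209. The 2 grey points at 3100 with series-wide scores of 4.87 and 7.13 are peaks beside stronger sites. The replicate 1 region of each such site overlaps the weaker peak only in part.

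Over all members, left-part peaks were narrow, with a median of 276.5 bp and quartiles of 201 and 391 bp. The median was 285.5 bp on the rest of X and 245 bp on chromosomes II to V. At least 500 bp was reached by 52 of 390 (13.3%, 10.1 to 17.1), where the share over all nuclear peaks was 13.1%. The rest of X had 13.6% (Fisher's exact test, adjusted p = 1) and chromosomes II to V 13.0% (Fisher's exact test, adjusted p = 1). Of the 52 wide peaks, 38 were found in both replicates, against 68 of 93 on the rest of X and 112 of 169 on chromosomes II to V. These tests thus did not distinguish the left part from the rest of X or from chromosomes II to V in width or score. The same held for the share of series-wide peaks found in both replicates. Shares of replicate regions that overlapped another list, which were lower on chromosomes II to V, were not tested.

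Gaps between neighbouring peaks on the left part varied widely. The median gap between successive peaks was 9.15 kb, with quartiles of 3.12 and 20.6 kb, against 10.4 kb on the rest of X and 27.1 kb on chromosomes II to V. Peaks with a neighbour within 1 kb were 83 of 390 (21.3%, 17.3 to 25.7), below the 27.3% of all nuclear peaks. The share was 29.2% on chromosomes II to V (26.7 to 31.7; Fisher's exact test, adjusted p = 0.0149) and 26.7% on the rest of X (23.4 to 30.2; Fisher's exact test, adjusted p = 0.145). With the distance set at 10 kb the order turned round, with 75.9% on the left part and 53.7% on chromosomes II to V. A share at this distance moves with the density of peaks, which was 66.0 and 19.3 per Mb, so it is not a result separate from the density ratio. Neighbours are not independent, so the p-values at 1 kb are too small. By Fisher's exact test the difference at 1 kb did not pass among the higher-scoring peaks (adjusted p = 0.852), in replicate 1 (adjusted p = 0.145) or in replicate 2 (adjusted p = 1). The share on chromosomes II to V also pools chromosomes of unlike spacing. Their lower-quartile gap between successive peaks was 0.735 kb on III, 1.80 kb on V, 5.91 kb on II and 6.44 kb on IV.

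**Figure D5:**
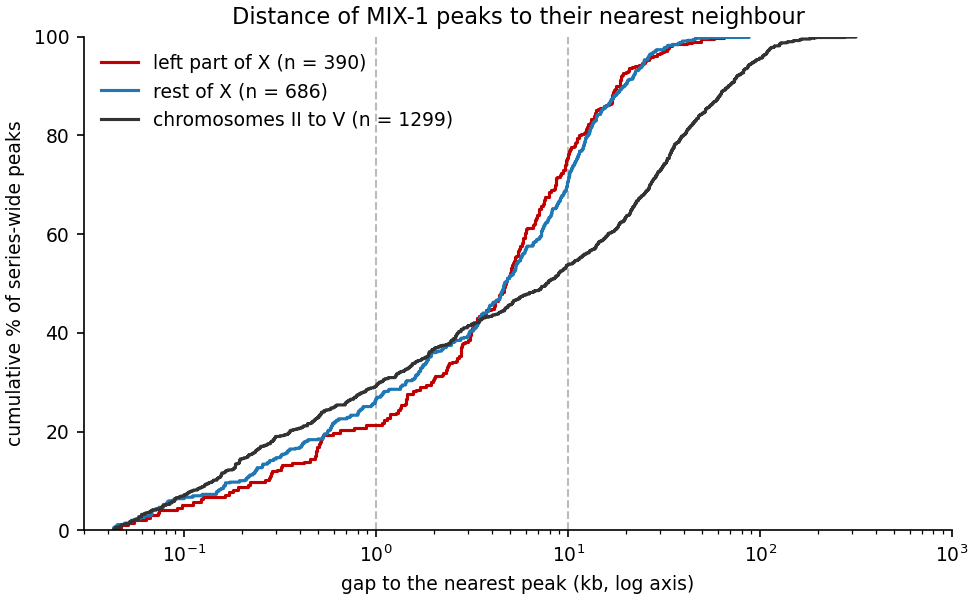
Cumulative percentage of series-wide peaks against the gap to the nearest peak on the same chromosome (kb, log axis) for the left part of X, the rest of X and chromosomes II to V, with dashed lines at 1 and 10 kb. At 1 kb the left part is lowest, at 21.3%, and at 10 kb it is highest, at 75.9%, so the curves cross in between.

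Joining peaks up to 10 kb apart turned the 390 into 183 groups, of which 94 were single peaks and 17 held 5 or more. The rest of X gave 355 groups, with 202 single peaks, 22 groups of 5 or more and a largest of 14 peaks. Chromosomes II to V gave 829, with 601 single peaks, 25 groups of 5 or more and a largest of 49. Groups of this size were thus not particular to the left part. The largest on the left part, X 1927945 to 1965172, held 13 peaks in 37.2 kb. Its highest series-wide score was 35.4, with 3 peaks found in both replicates, 12 replicate 1 regions and 3 replicate 2 regions. The second, X 1081929 to 1138288, held 10 peaks in 56.4 kb with a highest score of 13.5, and 1 of the 10 was found in both replicates. The next 3, X 1437060 to 1456936, X 1989642 to 2007056 and X 2057046 to 2071781, had 8 peaks each and highest scores of 16.5 to 21.8. All 5 groups of 8 or more peaks thus began between 1.08 and 2.06 Mb, a stretch picked out after its values were seen. None of the 20 strongest sites lay in them. Peaks with and without a close neighbour had similar scores, with medians of 7.13 within 1 kb, 7.72 at over 1 to 10 kb and 7.44 beyond 10 kb.

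The longest stretches without a series-wide peak measured under 100 kb. X 601717 to 693932 spanned 92.2 kb and X 2901355 to 2984051 spanned 82.7 kb. Each was touched by 2 replicate 1 regions and no replicate 2 region. These regions include X 601421 to 601867 and X 2901121 to 2901516, which only reach in from the series-wide peak bordering each gap. X 2707911 to 2793467, of 85.6 kb, had no region in any list. The longest gap was 179.3 kb on the rest of X and 554.3 kb on chromosomes II to V, which are longer spans.

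At the chromosome end, the first peak began at base 1 of X and ended at base 328. It was found in both replicates, at X 1 to 326 and X 1 to 348, and scored 881.97 in replicate 1 and 169.1 in replicate 2, with a series-wide score of 11.2. At the other limit of the stretch, the last 3 peaks inside were X 5820921 to 5821195, X 5840883 to 5841482 and X 5847280 to 5847530. Their series-wide scores were 3.24, 31.6 and 6.76 in this order. The first 3 peaks outside were X 5913529 to 5914172, X 5914329 to 5914506 and X 5914578 to 5914888, which scored 2.51, 2.04 and 4.46. The limit thus fell in a gap and cut through no peak, and moving it by 0.5 Mb either way gave ratios of 3.38 and 3.47 to chromosomes II to V. Gene annotation and sequence of the WS220 build were not used here, so genes, promoters and recruitment motifs under these peaks are not given.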

How the data were processed

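Peak lists were used as deposited by the authors: 1 for the series and 1 for each of the 2 ChIP libraries. BWA and ce10 are named in the submitters' processing notes, and coordinates are WormBase WS220, 1-based, per the file headers. The source column names MACS for the replicate lists and MACS v2 for the series-wide list. Caller settings, controls and the combining of replicates: not given in the sources used here. Column 6 of the deposited files is a score whose scale is not stated. Depth is unknown.

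Midpoints placed peaks in spans, and the end of a chromosome was the highest region end over the lists (17.7 Mb for X). The rest of X was divided into equal central and right spans at 11.8 Mb. Chromosome I enters only the shares over all nuclear peaks, and the 10 mitochondrial peaks enter none. Overlap meant at least 1 bp. Densities were compared by exact conditional binomial tests and shares by Fisher's exact test (two-sided, scipy 1.17.1), with p-values adjusted by Benjamini-Hochberg over the 13 tests and a threshold of 0.05. An alternative's p was adjusted with the other 12 at their reported values. The tests were checked on simulated data drawn as independent counts, a check that does not cover clustering of peaks. Named peaks were the 20 with the highest series-wide score found in both replicates, the highest of each 1-Mb bin and the 5 highest in neither replicate. They also took in the 5 highest of each replicate without a series-wide peak (replicate 2 had 3), the 3 on either side of the boundary, the 3 widest and the 3 longest gaps. The members, tests and naming rule were chosen with earlier results of these data known. Leaving out regions over 2 kb was added after seeing the data.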

Additional observations from a re-analysis of the deposited data

How the results depend on the processing

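The 13 tests were repeated under 71 alternative settings, of which 47 kept direction and side of the threshold, and the excess over chromosomes II to V passed in every one tried, at ratios of 2.52 to 3.87. The ratio to the central part, 1.25 as reported, no longer passed among the higher-scoring peaks (1.17), among peaks found in both replicates (1.25), after joining within 10 kb (1.03) or in either replicate alone (1.23 to 1.25). The ratio to the rest of X passed only after joining within 1 kb (1.20). The difference from chromosomes II to V in the share with a neighbour within 1 kb, -7.89 percentage points as reported, was -1.62 points among the higher-scoring peaks, -6.20 to -1.60 in the single replicates, none of which passed, and 22.2 at 10 kb, a distance at which the share moves with peak density.

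Results that did not pass also changed direction. The ratio to the right part was 0.990 among the higher-scoring peaks and 0.974 to 1.12 in the replicates. Outer over inner stretch was 0.857 among peaks in both replicates, 0.989 after joining within 10 kb and 0.847 to 1.21 in the replicates. Against the rest of X, the difference in percentage points was 0.614 for overlap with both replicates among the higher-scoring peaks, 5.34 for a neighbour within 10 kb and -4.35 to 5.34 for one within 1 kb in the replicates, and -2.09 to 4.78 for wide peaks in the replicates. Against chromosomes II to V it was -0.910 for the highest-scoring 10% among peaks in both replicates and -0.948 to 0.682 in the replicates. For wide peaks it was -1.65 at 1 kb, -0.0328 among peaks in both replicates and -7.47 to 6.54 in the replicates. The cause was not tested. No paired analysis was possible because the input libraries have no peak list here and each replicate list is a single library. Unknown depth limits all comparisons between lists.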
